A study of Rattus norvegicus with 24 samples.

Results

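The genes described here encode 5 abundant secreted plasma proteins of the liver. They are albumin (Alb, ENSRNOG00000002911), transthyretin (Ttr, ENSRNOG00000016275), transferrin (Tf, ENSRNOG00000030625), apolipoprotein B (Apob, ENSRNOG00000005542) and apolipoprotein E (Apoe, ENSRNOG00000018454). They were chosen by Ensembl gene ID for their function, when earlier results of these data were already known. All 5 were present among the 18056 gene IDs of the deposited tables. Liver RNA was sequenced from 24 rats at about postnatal day 48, in 4 groups of 6 libraries. The groups are males and females from dams that breathed filtered air, and males and females from dams that breathed 0.8 ppm ozone, in each case for 4 hours on gestation days 5 and 6. Each exposure had 12 dams, and the labels tie no animal to a dam or litter, so littermates may be among the animals of a group. All 24 offspring had themselves breathed ozone once a week from postnatal week 5 to week 7, at 0.4 ppm first and at 0.8 ppm in weeks 6 and 7. The groups therefore differ in maternal exposure and sex, not in the offspring's own exposure, and the labels record sex under a tag for genotype. No strain is given.

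Hepatocytes make most of the protein of blood plasma and release it through the secretory pathway. Albumin holds water in the circulation and carries fatty acids, hormones and drugs. Transthyretin carries thyroid hormone and, bound to retinol-binding protein, vitamin A, and transferrin carries iron to cells with transferrin receptors. Apolipoprotein B is the structural protein of the very low density lipoproteins that export triglyceride from the liver, and in rat liver part of its mRNA is edited so that a shorter protein is made. Apolipoprotein E is a ligand through which lipoprotein remnants are taken up by receptors of the LDL receptor family, and macrophages make it as well as hepatocytes.

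Library totals ran from 8462290 to 36232100 estimated counts, with a median of 11409400. The deepest was replicate 6 of the females from ozone-exposed dams. The 5 genes together took between 9.10% and 15.2% of a library's counts. The smallest count of any of them in any library was 15280, for which counting error alone is 0.81%, so depth adds little to the spread below. With 1 library per animal, differences between animals and between library preparations cannot be told apart. The 2 forms of library name divide the libraries into set 1 and set 2, whose sequencer sample numbers repeat between the forms. Set 1 holds 3 libraries of each group from air-exposed dams and 2 of each group from ozone-exposed dams, and set 2 holds 3 and 4. Alb, Ttr and Tf had whole counts in all 24 libraries. Apob had fractional counts in 16 libraries and Apoe in 21, and how the fractions arose is not stated. Levels are given as CPM, each count relative to the library's effective size after TMM normalization. CPM is not divided by gene length, so a gene is compared only with itself across groups.

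As a check of the labelled tissue, albumin, the main secretory product of hepatocytes, took a large share of every library. With air-exposed dams its share averaged 10.2% ± 0.61 in males and 9.36% ± 0.55 in females (SD, n = 6 each). With ozone-exposed dams the averages were 8.71% ± 1.11 and 8.33% ± 1.63. The lists of markers for other liver cells could not be matched to the gene IDs, so the cell makeup of the samples was not measured. In bulk tissue, fewer cells of a type and less RNA per cell cannot be told apart.

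Promoter sequence is shown for the 3 carrier proteins, since Ttr and Tf differed between the sexes of air-exposed dams and Alb was not called. RefSeq windows of the GRCr8 build were found for 4 of the 5 genes, namely Alb, Ttr, Tf and Apoe. A set of 6 motifs was searched on both strands in the 250 bases before each annotated start, and the shown sequences are the last 120 bases of that stretch, 5′ to 3′ on the gene's strand, with matches in capitals. The motifs were GTTAAT (part of an HNF1 site), GGTCAAAG (a core recognised by HNF4), TTCNNNGAA (the palindrome bound by STAT factors), TGTTTAC (a forkhead core), CCAAT and TATAAA, none of which contains another.
Alb, chr14:17906980-17907099, minus strand: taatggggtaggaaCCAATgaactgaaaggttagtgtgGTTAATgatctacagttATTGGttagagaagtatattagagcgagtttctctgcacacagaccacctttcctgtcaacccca
Ttr, chr18:12218638-12218757, plus strand: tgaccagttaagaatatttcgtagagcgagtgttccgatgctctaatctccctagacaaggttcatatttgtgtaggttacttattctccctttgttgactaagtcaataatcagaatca
Tf, chr8:112695377-112695496, minus strand: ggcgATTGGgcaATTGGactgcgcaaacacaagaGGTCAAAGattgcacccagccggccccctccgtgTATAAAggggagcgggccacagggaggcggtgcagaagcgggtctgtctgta

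Alb held 1 match to GTTAAT, beginning 82 bases before the start, and CCAAT on each strand. Tf held the HNF4 core at 86 bases, TATAAA at 52 bases and 2 CCAAT matches on the opposite strand. No exact match to the 6 motifs was found in the 250 bases before the annotated Ttr start. For Apoe, RefSeq gives 3 starts, and the only match was CCAAT on the opposite strand, 176 bases before 1 of them. Among 33469 promoter windows of the same length, 6.45% held GTTAAT, 0.935% GGTCAAAG, 7.67% TTCNNNGAA, 3.21% TGTTTAC, 34% CCAAT and 12.9% TATAAA. A match is a run of letters and not evidence of binding. The lack of an exact match before an annotated start is likewise not evidence that a gene has no such site.

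**Figure D1:**
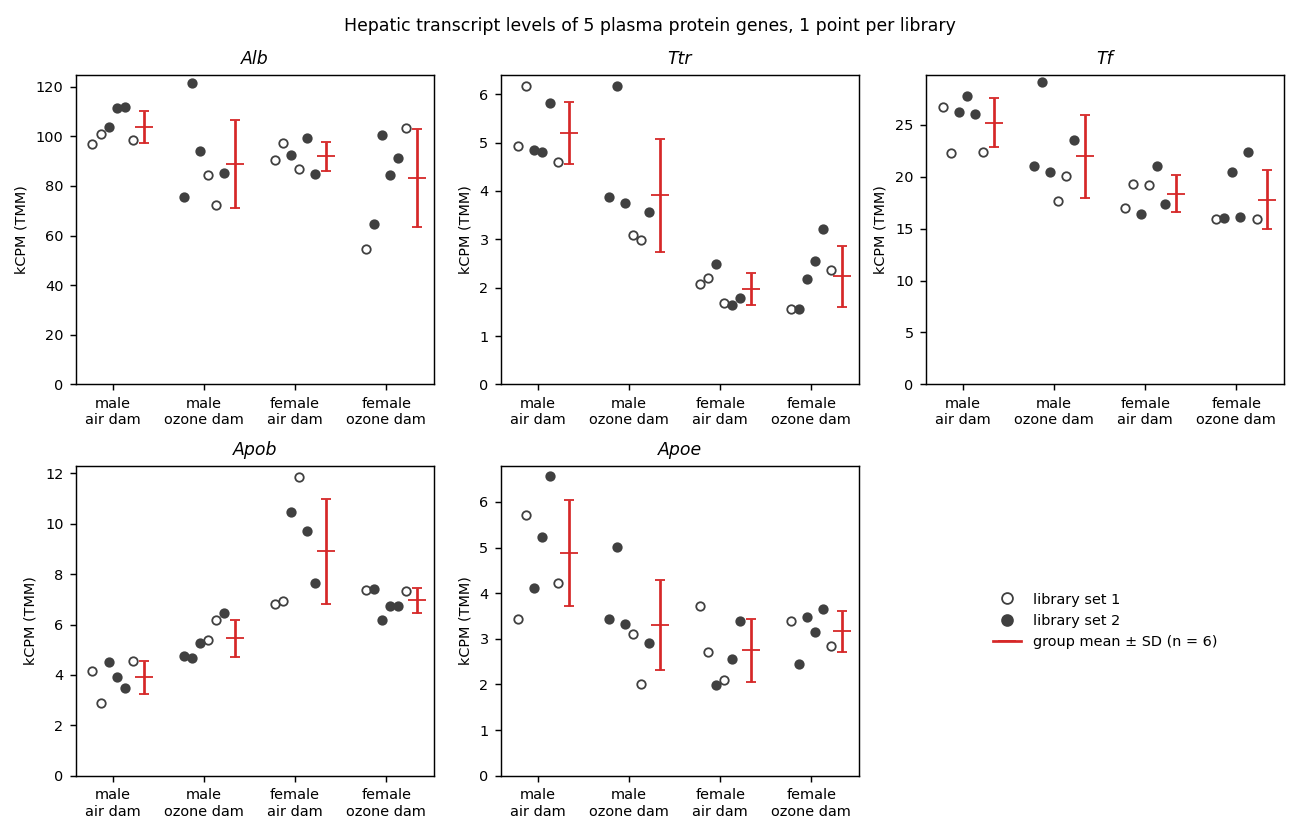
Levels of the 5 genes in CPM (TMM; kCPM on the axes, with k for kilo), 1 point per library, with open points for library set 1, filled points for set 2, and the group mean ± SD (n = 6) in red. Apob is lowest in the males from air-exposed dams, while Ttr is higher in males than in females of air-exposed dams without overlap.

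Between the sexes, 4 of the 5 genes differed in offspring of air-exposed dams. Ttr, Tf and Apoe were higher in males and Apob was higher in females, each by edgeR's quasi-likelihood test with Benjamini-Hochberg adjustment over all 12854 genes tested and a threshold of 0.05. The share of all genes called in that comparison was 51.5%, so 4 of 5 is a count on a high background. Fold changes are on the log2 scale with the library set as a covariate.

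Transthyretin lay between 4596 and 6161 CPM in males from air-exposed dams, with a median of 4887. In females from air-exposed dams it lay between 1638 and 2483 CPM, with a median of 1934. The groups did not overlap, and the male mean was 2.62 times the female mean. The log2 difference was 1.39 ± 0.18 (SE; 95% interval 1.03 to 1.75; edgeR adjusted p = 1.14e-06). It was 1.41 within library set 1 and 1.39 within set 2.

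Apolipoprotein B went the opposite way. It lay between 2866 and 4539 CPM in males from air-exposed dams, with a median of 4022, and between 6809 and 11851 CPM in females, with a median of 8678. Every male library was below every female library. The log2 difference, male minus female, was -1.19 ± 0.14 (SE; 95% interval -1.48 to -0.90; edgeR adjusted p = 5.63e-07), which is 2.28-fold lower in males. Within library sets 1 and 2 it was -1.14 and -1.23.

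Apolipoprotein E had medians of 4734 CPM in males and 2635 CPM in females of air-exposed dams. Males ran from 3432 to 6563 CPM and females from 1985 to 3722 CPM, so the ranges overlapped, with 5 of 6 males above all females. The log2 difference was 0.82 ± 0.19 (SE; edgeR adjusted p = 0.00073), with a 95% interval of 1.35- to 2.30-fold. Transferrin showed a smaller difference of 0.45 ± 0.11 (SE; adjusted p = 0.0018) without overlap, at 22260 to 27736 CPM in males (median 26132) and 16413 to 21040 CPM in females (median 18267). Both directions were the same within each library set, but in set 1 alone, with 3 animals a group, neither passed the test (edgeR adjusted p = 0.119 for Tf and 0.0871 for Apoe).

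Albumin was not called between the sexes of air-exposed dams. Males ran from 97060 to 111913 CPM with a median of 102263, and females from 84929 to 99312 CPM with a median of 91382. The ranges overlapped, although 4 of 6 males were above all females. The log2 difference was 0.17 (95% interval -0.11 to 0.45; edgeR adjusted p = 0.292), so a male excess of up to 1.37-fold lies within the interval.

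In offspring of ozone-exposed dams, 1 of the 5 genes was called between the sexes, against 5.76% of all genes. This was Ttr, at 2983 to 6175 CPM in males (median 3659) and 1549 to 3205 CPM in females (median 2274), with 4 of 6 males above all females. Its log2 difference was 0.80 ± 0.17 (SE; 95% interval 0.44 to 1.16; edgeR adjusted p = 0.0044). In library set 1 alone, with 2 animals a group, it was 0.64 and the adjusted p was 0.528, and in set 2 alone it was 0.88 with an adjusted p of 0.0460.

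The other 4 genes did not pass that test. Apob was at -0.35 (95% interval -0.64 to -0.06; edgeR adjusted p = 0.160) and Tf at 0.30 (0.07 to 0.53; adjusted p = 0.134), in each case with the same sign as in offspring of air-exposed dams. Apoe stood at 0.05 (-0.33 to 0.43; adjusted p = 0.933) and Alb at 0.09 (-0.19 to 0.37; adjusted p = 0.791). For Apoe, males ran from 2000 to 5015 CPM and females from 2446 to 3644 CPM, so the female range lay inside the male range.

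**Figure D2:**
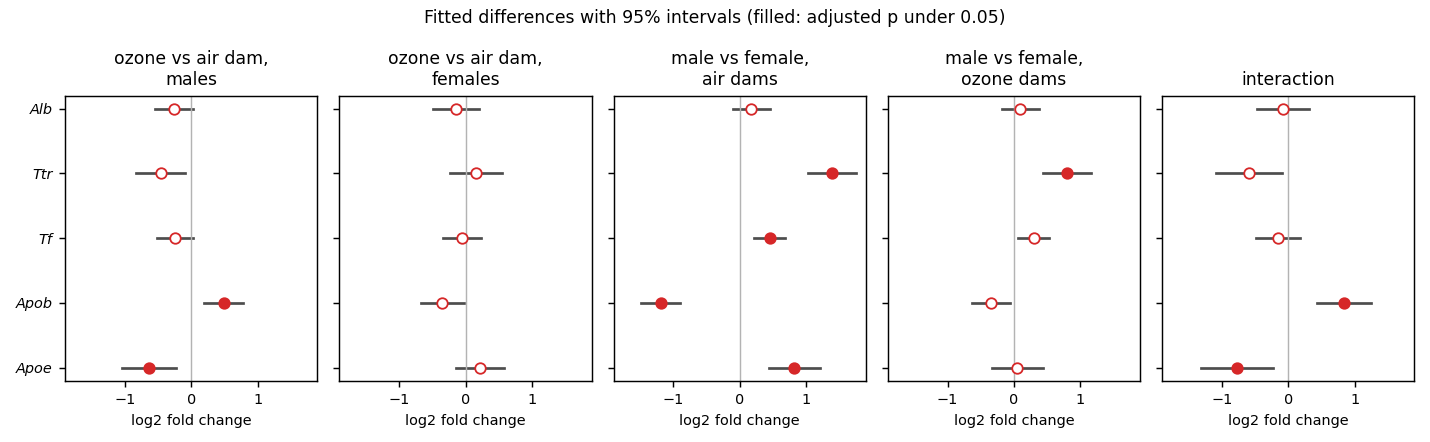
Fitted log2 fold changes of the 5 genes (points) with 95% intervals (lines) in the 5 comparisons, filled where the adjusted p is under 0.05. There are 4 filled genes between the sexes of air-exposed dams, 1 between the sexes of ozone-exposed dams, and Apob and Apoe in males and in the interaction.

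The maternal comparison in males asked whether ozone in early gestation went with another hepatic level of these genes at about postnatal day 48. Apob rose and Apoe fell with maternal ozone, so 2 of the 5 genes were called, against 21.3% of the 12541 genes tested. The median log2 fold change of the 5 genes was -0.26 and that of all tested genes was -0.0026.

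Apob had its lowest levels in males from air-exposed dams. In that group the lowest library had 2866 CPM, the median was 4022 and the highest was 4539. With ozone-exposed dams the values were 4686, 5326 and 6440 CPM, and all 6 libraries lay above all 6 of the other group. This separation depended on the scaling. As shares of raw counts the groups overlapped, at 0.403% to 0.659% with ozone-exposed dams and 0.276% to 0.451% with air-exposed dams. The log2 fold change was 0.49 ± 0.14 (SE; 95% interval 0.20 to 0.78; edgeR adjusted p = 0.0204), a ratio of group means of 1.40. It was 0.58 within library set 1 and 0.44 within set 2, where neither passed the test (adjusted p = 0.154 and 0.215). The call was also lost without replicate 5 of the males from air-exposed dams (adjusted p = 0.0638) and without replicate 5 of the males from ozone-exposed dams (adjusted p = 0.0563), with log2 fold changes of 0.44 and 0.45.

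Apoe fell from 4882 ± 1162 to 3298 ± 984 CPM (SD, n = 6 each). With ozone-exposed dams the lowest library had 2000 CPM, the median was 3217 and the highest was 5015. Of these 6 libraries, 5 lay below all libraries of the air group, whose lowest was 3432 CPM. For ozone replicate 1 the margin was negligible, at 3431.18 CPM against 3431.77 CPM in air replicate 1. As a share of raw counts ozone replicate 1 was the higher of the pair, at 0.348% against 0.339%. The log2 fold change was -0.64 ± 0.19 (SE; 95% interval -1.04 to -0.24; edgeR adjusted p = 0.0268). It was -0.81 in set 1 and -0.51 in set 2, neither called alone (adjusted p = 0.116 and 0.255). Leaving out air replicate 5 or ozone replicate 3, 5 or 6 also ended the call, at adjusted p = 0.0824, 0.0537, 0.0782 and 0.0530, and so did a fit with no library set term (adjusted p = 0.0650).

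Ttr, Alb and Tf had lower means with maternal ozone but were not called. Ttr was at 5192 ± 638 and 3909 ± 1165 CPM (SD, n = 6 each; log2 fold change -0.46, 95% interval -0.83 to -0.10; edgeR adjusted p = 0.0668). Alb was at 103880 ± 6435 and 88803 ± 17773 CPM (-0.26, -0.54 to 0.02; adjusted p = 0.179), and Tf at 25223 ± 2337 and 21966 ± 3988 CPM (-0.24, -0.51 to 0.02; adjusted p = 0.182). In Alb and Ttr, 5 of the 6 ozone libraries lay below all air libraries, and in Tf 4 did. Ttr passed the threshold with DESeq2 (adjusted p = 0.0280), limma-voom (0.0481), library totals only (0.0255), totals without the 10 most abundant genes (0.0247) and a mean count of at least 50 (0.0495).

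These 3 results changed with 1 library. Replicate 2 of the males from ozone-exposed dams had the highest Alb, Ttr, Tf and Apoe and the lowest Apob of its group, at 121540, 6175, 29138, 5015 and 4686 CPM. Its TMM factor of 0.861 was the lowest of the 24 libraries. As shares of raw counts, which that factor does not touch, it still had the highest Alb, Ttr, Tf and Apoe of the group, at 10.5%, 0.532%, 2.51% and 0.432%. Its Apob share, 0.403%, was still the lowest of the group. Each of these shares was within the range of the males from air-exposed dams. Without replicate 2 all 5 genes passed the test, with log2 fold changes of -0.36 for Alb, -0.61 for Ttr, -0.32 for Tf, 0.52 for Apob and -0.76 for Apoe (edgeR adjusted p = 0.0169, 0.0018, 0.0251, 0.0101 and 0.0035). Calls rose over all genes too, to 3740 of 12675 in that fit from 2670 of 12541 with all 12 libraries. Why this library stands apart was not tested.

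**Figure D3:**
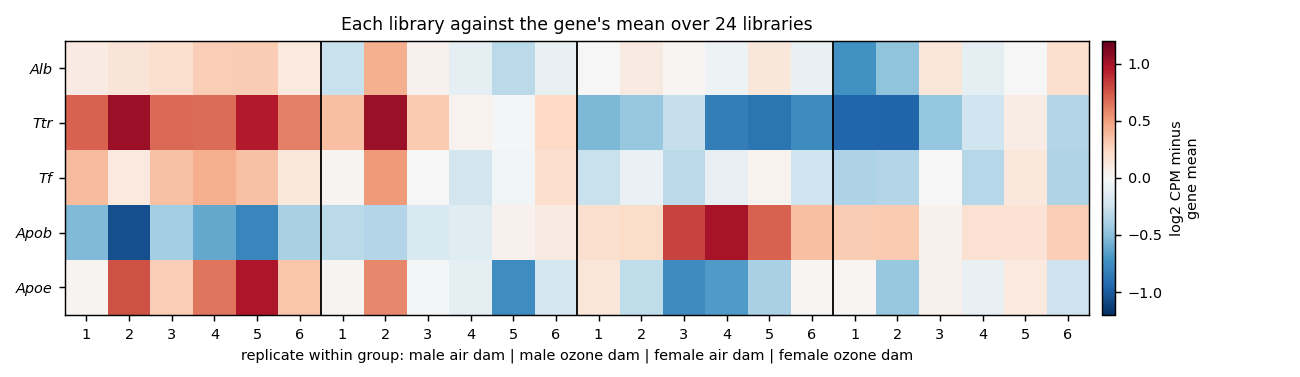
Log2 CPM of each gene in each library minus that gene's mean over the 24 libraries, in columns by group and replicate. In males from ozone-exposed dams, replicate 2 has the highest Ttr (1.03) and Apoe (0.58) and the lowest Apob (-0.35) of its group. In CPM its Apoe is within the range of the males from air-exposed dams, and its Alb, Ttr, Tf and Apob are above that range. As a share of raw counts, each of these genes is within that group's range.

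**Figure D4:**
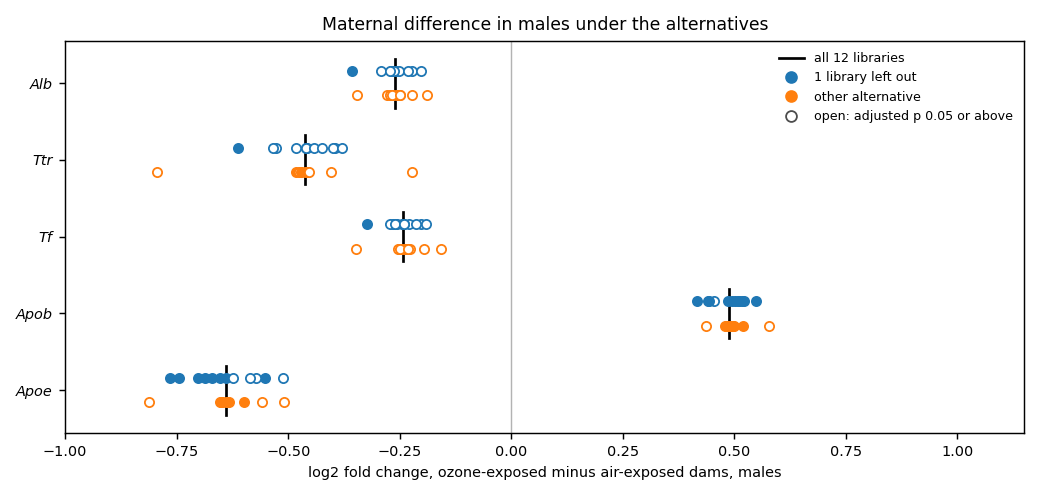
Log2 fold change of each gene between males from ozone-exposed and air-exposed dams, with all 12 libraries (black line), with 1 library left out (blue) and under the other alternatives (orange), filled where the adjusted p is under 0.05. No value crosses 0, and Alb, Ttr and Tf each have 1 filled blue point, the fit without ozone replicate 2.

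In females, 0 of the 5 genes were called between the dam groups by edgeR, against 0.271% of 12538 genes. DESeq2 and limma-voom also called 0 of the 5. Apob had the smallest edgeR p, 0.0357 before adjustment. It was at 8906 ± 2076 CPM with air-exposed dams and 6959 ± 488 CPM with ozone-exposed dams (SD, n = 6 each; log2 fold change -0.35, 95% interval -0.67 to -0.03; edgeR adjusted p = 0.282). The ozone group was narrow, from 6189 to 7400 CPM, and 3 of its 6 libraries lay below the whole air group, which ran from 6809 to 11851 CPM.

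The other 4 genes had intervals on both sides of 0 in females. Ttr was at 1980 ± 330 and 2236 ± 632 CPM (log2 fold change 0.16, 95% interval -0.23 to 0.55), and Apoe at 2744 ± 693 and 3162 ± 451 CPM (0.22, -0.14 to 0.59). Tf was at 18381 ± 1763 and 17808 ± 2857 CPM (-0.06, -0.34 to 0.23). Alb was at 91869 ± 5705 and 83119 ± 19636 CPM (-0.14, -0.49 to 0.20), and its spread with ozone-exposed dams came mainly from replicates 1 and 2, at 54611 and 64843 CPM, beside 84214 to 103511 CPM in the other 4. For Ttr the interval allows a rise of up to 1.47-fold.

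Whether the maternal difference itself differed between males and females was tested as an interaction over all 24 libraries. Apob and Apoe passed it, 2 of the 5 genes, against 23.3% of all 12854 genes. The interaction uses the same libraries as the comparisons above and equals, within 1 fit, the change of the sex difference from air-exposed to ozone-exposed dams, so it is not a separate observation.

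For Apob the maternal difference in males minus that in females was 0.84 ± 0.20 (SE; 95% interval 0.43 to 1.24; edgeR adjusted p = 0.0041). Maternal ozone went with higher Apob in males and with a lower mean in females, and the male deficit was 2.28-fold with air-exposed and 1.28-fold with ozone-exposed dams. The interaction was 0.81 in library set 1 (adjusted p = 0.246) and 0.88 in set 2 (adjusted p = 0.0443), and it was called with each of the 24 libraries left out in turn.

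For Apoe the interaction was -0.77 ± 0.26 (SE; 95% interval -1.31 to -0.23; edgeR adjusted p = 0.0344), with a fall in males and a higher, uncalled mean in females. It was -0.94 in set 1 and -0.79 in set 2, where it was not called (adjusted p = 0.208 and 0.156). The call was lost with any 1 of 11 libraries left out, at adjusted p of up to 0.0705. Those were replicates 2 and 5 of the males from air-exposed dams, 3, 5 and 6 of the males from ozone-exposed dams, 3, 4 and 5 of the females from air-exposed dams, and 1, 3 and 5 of the females from ozone-exposed dams.

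The interaction for Ttr was -0.59 (95% interval -1.09 to -0.09; edgeR adjusted p = 0.0785) and did not pass. It passed without replicate 2 of the males from ozone-exposed dams (-0.76, adjusted p = 0.0112) and without replicate 2 of the females from ozone-exposed dams (-0.69, adjusted p = 0.0330). Tf was at -0.15 (-0.48 to 0.18; adjusted p = 0.526) and Alb at -0.08 (-0.48 to 0.31; adjusted p = 0.793). For these 3 genes a change of the sex difference was therefore not shown, although Tf was called between the sexes with air-exposed dams and not with ozone-exposed dams.

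Across the 4 groups the order of means was the reverse for Apob of that for Ttr. Apob increased from males of air-exposed dams to males of ozone-exposed dams, then females of ozone-exposed dams and females of air-exposed dams, at 3902, 5455, 6959 and 8906 CPM. The 2 male groups differed by the test, and the other 2 pairs of neighbours did not. Ttr decreased over the same order, at 5192, 3909, 2236 and 1980 CPM, where the sexes of ozone-exposed dams differed by the test and the other 2 pairs of neighbours did not. Tf had the order of means 25223, 21966, 17808 and 18381 CPM, with no neighbouring pair called.

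The count ratio of Apob to Ttr within a library does not depend on how libraries are scaled. On the log2 scale the male groups averaged -0.42 ± 0.42 with air-exposed and 0.51 ± 0.52 with ozone-exposed dams (SD, n = 6 each). The female groups averaged 2.15 ± 0.46 and 1.68 ± 0.48. Replicate 2 of the males from ozone-exposed dams, at -0.40, was the only library of its group within the range of the air group, which ran from -1.10 to -0.018, and the lowest of the others was 0.30. The ratio was chosen after the values had been seen and is given as a description without a test.

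Spread between libraries differed among the groups. For Alb the SD was 6.19% of the mean CPM in males and 6.21% in females from air-exposed dams, but 20.01% and 23.6% with ozone-exposed dams. For Ttr it was 12.3% and 16.7% with air-exposed dams, and 29.8% and 28.3% with ozone-exposed dams. Apob went the other way in females, from 23.3% with air-exposed to 7.01% with ozone-exposed dams. Much of the spread of Alb and Ttr in males from ozone-exposed dams came from replicate 2, at 121540 and 6175 CPM. The rest of that group ran from 72458 to 93929 CPM for Alb and from 2983 to 3882 CPM for Ttr. As a share of raw counts, Alb was 8.71% ± 1.11 there, beside 10.2% ± 0.61 in males from air-exposed dams (SD, n = 6 each). The spread without replicate 2 was not computed, and the differences in spread were not tested.

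Over the 24 libraries, the gene whose log2 CPM was most like that of Apob was ENSRNOG00000007518 (Pearson r = 0.96), among 9336 genes with a mean count of at least 50. For Apoe it was ENSRNOG00000017817 (r = 0.96). An r over 0.9 was reached by 124 genes for Apob, 72 for Apoe, 23 for Ttr, 1 for Tf and 0 for Alb. All points share the same libraries and the sexes differ in many genes, so these values describe likeness across these libraries only. The files pair no symbols with the 2 IDs.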

How the data were processed

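Per the submitters' processing notes, the tools were STAR 2.6.1d, Partek and DESeq2 (both without a version), and the genome build was rn6. Their order and roles, the annotation and the strandedness of counting are not stated there. RNA was polyA-selected, per the labels' protocols. The authors deposited 1 table of estimated counts per sex, not normalized for library size or gene length, with 74.4% to 81.3% of a library's values whole (tolerance 1e-09). A further 23 library columns carry names of no sample described here and were left out. Counts were rounded to whole numbers, which moved library totals by at most 0.00038%.

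All genes were fitted with edgeR 4.0.16 in R 4.3.3 (robust quasi-likelihood, TMM, filterByExpr with a minimum count of 10 and total of 15), with library set as a covariate. Maternal comparisons used the 12 libraries of 1 sex. Sex differences and the interaction used all 24. Genes with Benjamini-Hochberg adjusted p under 0.05 are called. The SE is the one the test statistic implies, and CPM uses TMM over all 24 libraries. Likeness is Pearson's r of log2 CPM with a prior count of 2. The fits of the maternal comparisons and the interaction were tried on simulated counts, and those of the sex differences were not. The simulation gave all genes the same variability and held no library set or litter effect. Alternatives used DESeq2 1.42.0, limma 3.58.1 (voom) and the settings named in the closing section.

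The 5 genes, the lists and the motifs were chosen with earlier results of these data known. The rule for naming was all 5 genes, and for likeness the gene with the highest r, limited to 2 IDs in all because 0 of 18056 IDs matched a symbol in the reference table. The 5 symbols come from the choice of genes, not from the files. For the same reason 7 lists of related genes and 6 lists of cell type markers were not tested. Pairs of replicates differed by 17.2 to 91.8 chi-square units per degree of freedom, so none were duplicates. Nothing in the labels says which animals share a litter, and p-values treat animals as independent.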

Additional observations from a re-analysis of the deposited data

Results flagged for a closer look

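Ttr in replicate 2 of the males from ozone-exposed dams, at 6175 CPM, lay farther from the other 5 libraries of its group than Dixon's criterion allows. The next highest was 3882 CPM. This was 1 flag among 20 combinations of gene and group examined, and chance flags about 1 in 20.

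The maternal difference of Apob differed between males and females, with an interaction of 0.84 on the log2 scale (edgeR adjusted p = 0.0041). That of Apoe differed by -0.77 (adjusted p = 0.0344), a call that was lost with any 1 of 11 libraries left out.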

How the results depend on the processing

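The alternatives were DESeq2, limma-voom, RLE normalization, library totals only, totals without the 10 most abundant genes, no expression filter, a minimum mean count of 50, leaving the set term out or fitting it in each sex, set 1 or set 2 alone, 1 fit over all 24 libraries, and each library left out. In males, 2 of the 5 genes were called for the maternal difference, 1 with no set term and 0 in set 1 or set 2 alone, where fewer animals are compared. With 1 library left out the number ran from 0 to 5. It was 0 without air replicate 5 or ozone replicate 5, 1 without ozone replicate 3 or 6, and 5 without ozone replicate 2. In females it was 0 throughout. Between the sexes 4 were called with air-exposed dams (2 in set 1 alone) and 1 with ozone-exposed dams (0 in set 1 alone), with no change when 1 library was left out. For the interaction, 2 were called, 0 in set 1 and 1 in set 2 alone, and between 1 and 3 with 1 library left out.

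Signs changed only where nothing was called. In females the maternal difference of Ttr was -0.028 in set 1 alone and that of Tf 0.052 in set 2 alone. With ozone-exposed dams, the sex difference of Alb was -0.0064 in set 1 alone and ran from -0.0070 to 0.20 with 1 library left out. That of Apoe was -0.28 in set 1 alone, -0.028 with the set term fitted in each sex, and ran from -0.092 to 0.16 with 1 library left out. The interaction of Alb ran from -0.19 to 0.029. The cause was not tested.

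Over all genes, 2670 were called for the maternal difference in males, 861 in set 1 and 121 in set 2 alone. In females the number was 34, with 332 by DESeq2, 66 with no set term, 9 in set 1, 0 in set 2 and 1 with all 24 libraries. In set 1 and set 2 alone, the sex difference with air-exposed dams called 3404 and 4551 of 6621, that with ozone-exposed dams 71 and 412 of 741, and the interaction 432 and 450 of 2994. With 1 library left out the number in males ran from 1684 without air replicate 5 to 3740 without ozone replicate 2. It was 1758 without air replicate 4. In females it ran from 0 without air replicate 6 to 135 without air replicate 1. No paired analysis was possible because the labels give no replicate numbers and tie no animals of different groups to each other.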
